A study of Mus musculus with 4 samples.

Results

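The genes of the mouse Hox clusters were followed in testis RNA of 2 Znhit1_KO and 2 CTRL libraries taken at postnatal day 14. All rows of the deposited gene table named Hoxa, Hoxb, Hoxc or Hoxd with a paralogue number were taken, which gave 39 genes of 55335: 11 Hoxa, 10 Hoxb, 9 Hoxc and 9 Hoxd genes. Both groups are labelled as testis tissue and testis cells with poly(A) RNA, and the labels give the genotype as Znhit1_KO or CTRL. Not given in the sources used here are the knockout allele, any Cre driver, the strain and the number of animals behind a library. The design text of the series speaks of germ cells, but no purification of germ cells is described, so a level here is that of a mixture of cells in which fewer cells of a type and less RNA per cell cannot be told apart. The labels call the 2 libraries of a group independent biological replicates.

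Hox genes encode homeodomain transcription factors that set the identity of body segments along the head to tail axis. They lie in 4 clusters, all genes of a cluster being read in the same direction, and the order of the genes along the chromosome follows the order of their expression domains: paralogue 1 is expressed earliest and reaches farthest toward the head, paralogue 13 latest and closest to the tail. Polycomb proteins keep the clusters silent and Trithorax proteins keep them active. ZNHIT1 belongs to the SRCAP complex, a chromatin remodeller that puts the H2A.Z histone variant into nucleosomes. After birth, many cells keep part of the Hox code of the body level they arose from, and Hoxa4 has long been known to be transcribed in meiotic and postmeiotic male germ cells.

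The homeoboxes of Hoxa4 and Hoxd13 are shown because these genes gave the opposite patterns described below. Each is the 180 bases that encode the DNA-binding homeodomain, 5′ to 3′ on the coding strand, from GENCODE M21 transcripts (mm10), and the capitals mark 18 bases of the third helix, which reads the DNA.
Hoxa4: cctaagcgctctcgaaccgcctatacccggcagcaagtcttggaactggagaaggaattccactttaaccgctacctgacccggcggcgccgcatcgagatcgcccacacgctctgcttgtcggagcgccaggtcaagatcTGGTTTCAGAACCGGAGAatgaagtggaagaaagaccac
Hoxd13: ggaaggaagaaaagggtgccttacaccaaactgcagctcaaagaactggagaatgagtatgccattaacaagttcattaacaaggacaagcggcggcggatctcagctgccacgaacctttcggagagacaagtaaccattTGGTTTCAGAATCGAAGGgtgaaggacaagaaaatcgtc
The homeoboxes of Hoxa4 and Hoxd13 were identical at 51.7% of positions. Over all 39 genes the median identity was 80.6% in the 42 pairs of the same paralogue number and 61.7% in the 172 pairs of the same cluster. The longest run of identical bases between transcripts of 2 Hox genes that do not overlap was 52 bases. The sources used here do not give the read length.

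Levels are given as CPM (counts per megacount of the library, scaled with TMM factors) or as the TPM in the authors' deposited table. The TPM serve to compare genes of unequal length, being adjusted for transcript length, and are not scaled with these factors. Of the 39 Hox genes, Hoxa11 was at 0 in all 4 libraries and 33 had counts high enough to be tested; Hoxa6, Hoxa11, Hoxa13, Hoxc11, Hoxc12 and Hoxd12 had not. Only 28 genes had an estimated count of at least 10 in each library. The authors' deposited table lists 34 of them, 8 with a mean of at least 2 TPM and 23 with a mean under 1 TPM.

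By mean TPM over the 4 libraries the order was Hoxa4 (14.7), Hoxd8 (10.1), Hoxd9 (9.90), Hoxb9 (9.40), Hoxa3 (6.03), Hoxc6 (3.71), Hoxd10 (2.74) and Hoxc4 (2.56). This order was not the same in the groups. In the CTRL libraries Hoxa4 stood first, at 11.8 and 33.7 TPM, above Hoxd8 at 8.97 and 9.93 TPM. In the Znhit1_KO libraries Hoxa4 was at 3.52 and 9.97 TPM, below Hoxd9 at 11.3 and 15.9 TPM and below both values of Hoxd8 (10.1 and 11.5 TPM) and Hoxb9 (10.6 and 10.7 TPM). Hoxd8 and Hoxb9 overlapped in the CTRL libraries and also in the Znhit1_KO libraries, so their order is not fixed by these data. Hoxa4 held 19.9% and 42.1% of the summed Hox TPM in the CTRL libraries and 5.12% and 11.6% in the Znhit1_KO libraries.

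**Figure D1:**
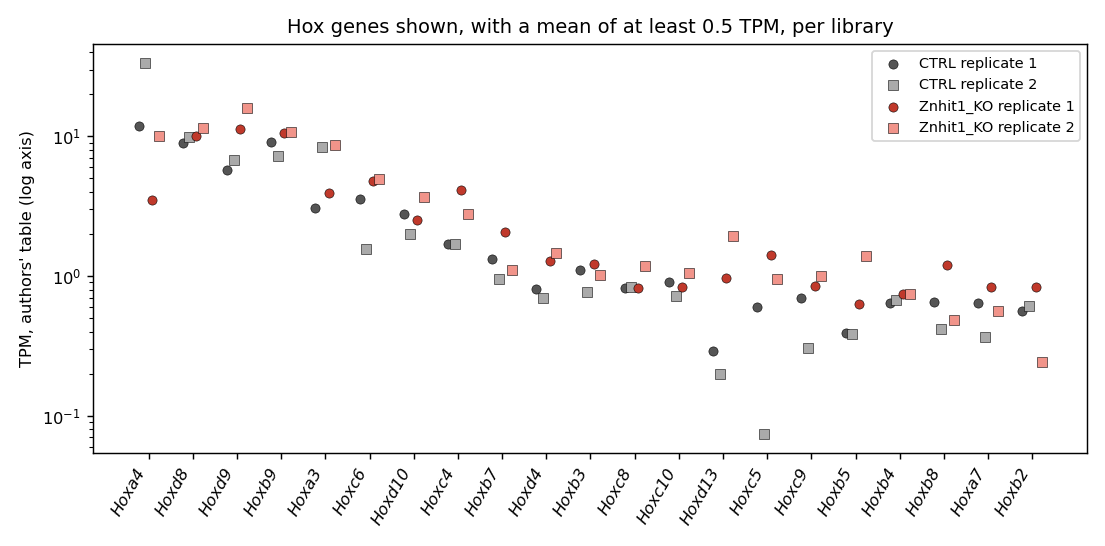
TPM per library (log axis) of the Hox genes with a mean of at least 0.5 TPM, in order of the mean, without 1 gene that is not shown, from the authors' deposited table; each point is 1 library. Hoxa4 spans 3.52 to 33.7 TPM. Hoxd9 and Hoxd13 are among several genes, Hoxd8 and Hoxb9 included, with both Znhit1_KO points above both CTRL points.

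The targeted gene was checked first. Znhit1 stood at 17.3 and 31.9 CPM in the CTRL libraries and at 3.15 and 2.14 CPM in the Znhit1_KO libraries, in the direction of the labels (log2 change -3.22 ± 0.40 SE, adjusted p = 0.264 in edgeR's quasi-likelihood test, n = 2 per group). Total estimated counts ran from 129531714 to 157790457 per library, above the number of reads the labels state, so they overstate the counting precision. With 2 libraries per group, edgeR called 0 of 24116 tested genes at an adjusted p of 0.05 (0%), and no Hox gene. At an unadjusted p under 0.05 it gave 722 genes higher (2.99%) and 1868 lower (7.75%) in Znhit1_KO. DESeq2 called 102 genes higher (0.404%) and 925 lower (3.67%) of the 25236 to which it gave an adjusted p.

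Most tested Hox genes were on the higher side in Znhit1_KO. The log2 change was positive for 30 of the 33 tested genes, against 53.1% of all tested genes, and negative for Hoxa4, Hoxb2 and Hoxc13. Both Znhit1_KO libraries were above both CTRL libraries for 14 of the 33, against 21.8% of all tested genes, and both were below for 2 (Hoxa4 and Hoxc13), against 21.3%; for the other 17 the groups overlapped. These comparisons of libraries were made on CPM. The median log2 change was 0.38, where that of all tested genes was 0.03. The spread of single genes was wide, from -1.84 for Hoxa4 to 2.52 for Hoxd1, and 16 of the 33 lay within 1 SE of no change. Without CTRL replicate 1 the Hox median was 0.74, over 35 tested genes.

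The 14 genes with both Znhit1_KO libraries above both CTRL libraries were Hoxa5, Hoxb1, Hoxb4, Hoxb5, Hoxb6, Hoxb9, Hoxc4, Hoxc6, Hoxc9, Hoxd1, Hoxd4, Hoxd9, Hoxd11 and Hoxd13. Unadjusted p-values under 0.05 in edgeR were found for 3 Hox genes, Hoxd13, Hoxd9 and Hoxc4, all higher in Znhit1_KO. DESeq2 called Hoxd9 and Hoxd13 as higher and Hoxa4 as lower, with adjusted p = 0.0290, 0.00269 and 0.0454. The authors' deposited table gives these 3 genes the same log2 changes and adjusted p, so its marks in the same directions are not a separate result. It marks 70 genes up (0.277%) and 812 down (3.22%) of 25236.

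Several marker lists of somatic testis cells were also on the higher side in Znhit1_KO. No gene, and so no marker, passed edgeR's adjusted threshold. DESeq2 called 2 of 8 Leydig cell and 1 of 13 Sertoli cell markers as higher, against 0.404% of all genes. It called none of the stromal, myoid, macrophage and endothelial markers. The authors' deposited table marks Cyp17a1, Cyp11a1 and Ptgds up. Over 13 Sertoli cell markers, the summed level was 5774 and 5992 CPM in CTRL and 8185 and 6887 CPM in Znhit1_KO. Clu alone made up 3581 and 3936 CPM of this sum in CTRL and 4986 and 4324 CPM in Znhit1_KO (log2 change 0.31). A positive log2 change was found for 13 of 13 markers, against 53.1% of all tested genes, with a median of 0.47. Of the 13, 10 were higher in both Znhit1_KO libraries, against 21.8% of all tested genes. The 7 interstitial stromal markers summed to 349 and 354 CPM in CTRL and to 422 and 537 CPM in Znhit1_KO, and the 8 Leydig cell markers to 174 and 176 against 236 and 250 CPM. Nr5a1 alone made up most of the Leydig sum, 133 and 112 CPM in CTRL and 175 and 149 CPM in Znhit1_KO. The 7 peritubular myoid markers overlapped between the groups (758 and 799 against 856 and 685 CPM), with a median log2 change of -0.003. The 7 macrophage markers, of which Mrc1 was the most abundant, overlapped as a sum (49.0 and 56.6 against 55.0 and 76.8 CPM). However, 7 of 7 had a positive log2 change, with a median of 0.67. Of the 7, 4 were higher in both Znhit1_KO libraries, against the 21.8% of all tested genes. The 7 endothelial markers summed to 76.3 and 92.0 against 96.7 and 111 CPM. Among early germ cells, the 7 markers of undifferentiated spermatogonia summed to 333 and 384 against 391 and 388 CPM, and the 6 of differentiating spermatogonia to 420 and 483 against 340.6 and 391.7 CPM. Adipocyte and skeletal muscle markers summed to at most 4.32 and 9.29 CPM in any library. The libraries were also scaled on the Sertoli sum, which is mostly Clu. Then 18 of the 33 tested Hox genes had a positive change, beside 5645 of all 24116 genes. The Hox median was then 0.02 and that of all genes -0.32, and both Znhit1_KO libraries were above both CTRL libraries for 8 Hox genes, against 5.31% of all tested genes: Hoxa5, Hoxb1, Hoxc4, Hoxd1, Hoxd4, Hoxd9, Hoxd11 and Hoxd13. Whether the shares of somatic cells differ between the testes was not tested.

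**Figure D2:**
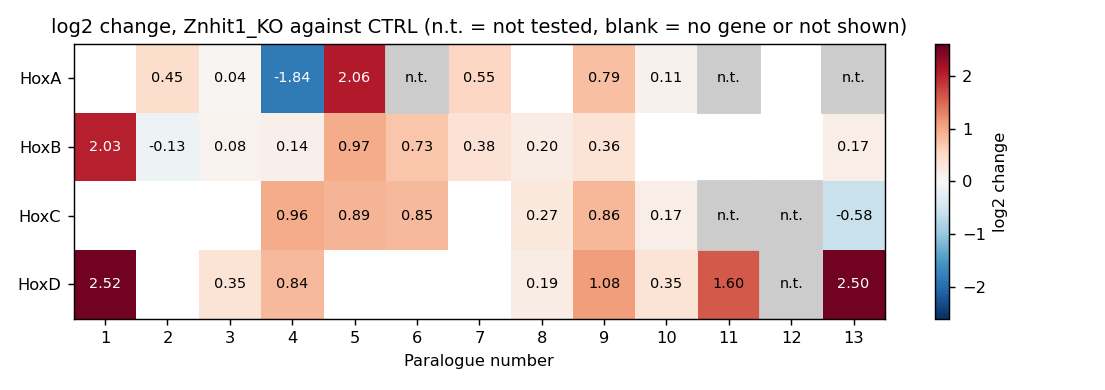
Log2 change (Znhit1_KO against CTRL, edgeR) of each tested Hox gene by cluster (rows) and paralogue number (columns), red for higher and blue for lower; grey cells were not tested and blank cells hold no gene or one that is not shown. The 8 tested Hoxd genes are all on the higher side, and Hoxa4 at -1.84 is the lowest value of the grid.

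By cluster, the median log2 change was 0.28 for Hoxa, 0.28 for Hoxb, 0.85 for Hoxc and 0.96 for Hoxd. Both Znhit1_KO libraries were above both CTRL libraries for 1 of 8 tested Hoxa genes, 5 of 10 Hoxb genes, 3 of 7 Hoxc genes and 5 of 8 Hoxd genes. Over all tested genes the share was 21.8%, and Hoxb4 counts among the Hoxb genes only by 0.756 against 0.755 CPM. The difference between clusters was not tested. Low genes weigh on such medians. Over all clusters, the 20 tested genes with a mean of at least 0.5 CPM had a median of 0.31 and the 13 lower ones 0.73. Hoxd genes summed to 19.3 and 19.8 TPM in CTRL against 27.7 and 35.5 TPM in Znhit1_KO, and Hoxc genes to 8.47 and 5.39 against 13 and 12 TPM. For Hoxb the sums were 14.3 and 11.4 against 18.1 and 16.5. The Hoxd, Hoxc and Hoxb sums did not overlap between the groups. The Hoxa sums did, at 17.3 and 43.5 in CTRL and 9.97 and 21.6 in Znhit1_KO.

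By position, the median log2 change was 0.22 for the 8 tested anterior genes (paralogues 1 to 3), 0.64 for the 14 central genes (4 to 8) and 0.36 for the 11 posterior genes (9 to 13). These medians depend on which low genes are tested: without a filter they were 0.22, 0.73 and 0.79, and in DESeq2 the central and posterior ones were 0.73 and 0.78. Paralogue 9 had 4 of 4 tested genes at a positive change and 3 of 4 higher in both Znhit1_KO libraries (Hoxb9, Hoxc9, Hoxd9), with a median of 0.83. Over all tested genes these shares were 53.1% and 21.8%. Paralogue 9 did not stand apart: paralogue 5 had 2 of 3 and paralogue 6 had 2 of 2 tested genes higher in both. Their medians were 0.97 and 0.79, and that of paralogue 1 was 2.03. Paralogue 8 had a median of 0.20 and paralogue 10 one of 0.17, and for all 6 of their genes the groups overlapped in CPM. Within paralogue 4 the genes parted: Hoxc4 and Hoxd4 were higher in both Znhit1_KO libraries, and Hoxa4 was lower in both. Hoxb4 was higher in both only just, at 0.622 and 0.755 against 0.759 and 0.756 CPM. Within paralogue 13, Hoxd13 was higher, Hoxc13 lower, and Hoxb13 overlapped.

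**Figure D3:**
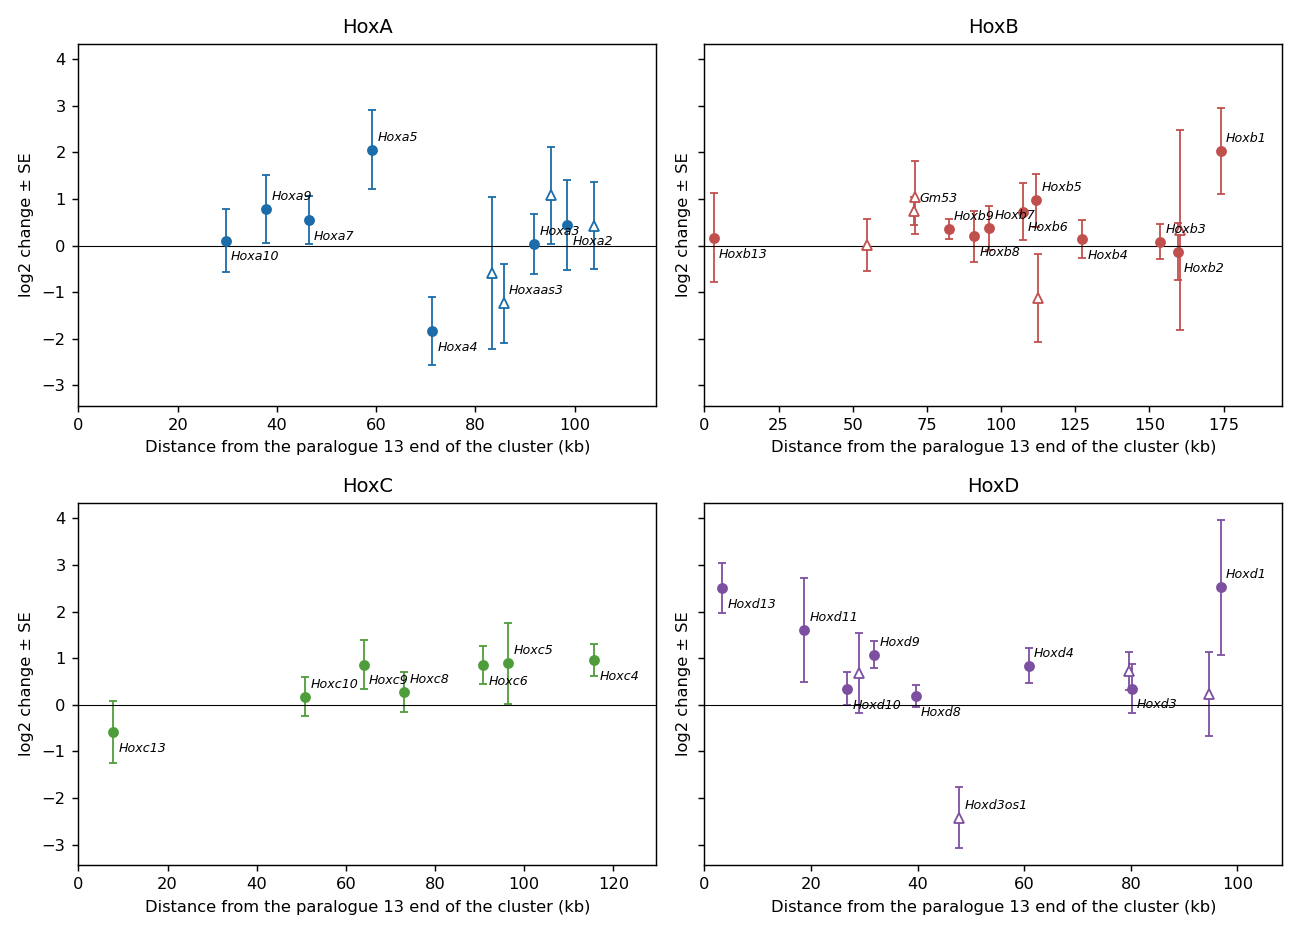
Log2 change ± SE (edgeR) of tested genes inside each cluster against the distance in kb of the gene's paralogue 1 side end from the paralogue 13 end of the cluster; filled circles are Hox genes and open triangles other annotated genes. Hoxd13 and Hoxd1 lie at opposite ends of the Hoxd cluster. Hoxd3os1, at -2.43, is plotted by that end between Hoxd8 and Hoxd4, though its span encloses Hoxd8.

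The posterior Hoxd genes pattern limbs, genitalia and the urogenital tract. Hoxd13, the last gene of its cluster (chr2:74668310-74671599, plus strand, mm10), was at 0.281 and 0.218 CPM in the CTRL libraries and at 0.943 and 1.89 CPM in the Znhit1_KO libraries. Both Znhit1_KO libraries were well above both CTRL libraries, from estimated counts of 38, 28, 149 and 263. The log2 change was 2.5 ± 0.53 SE, 5.66-fold (adjusted p = 0.276 in edgeR), the lowest p among the Hox genes. Without Znhit1_KO replicate 2, the higher library, it was 1.87.

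Hoxd9 (chr2:74697727-74700208) was the most abundant Hox gene of both Znhit1_KO libraries in TPM. It stood at 4.63 and 6.24 CPM in CTRL and at 9.47 and 13.4 CPM in Znhit1_KO. The groups did not overlap, and the log2 change was 1.08 ± 0.30 SE, 2.11-fold (adjusted p = 0.332 in edgeR). Per 1000 CPM of Sertoli markers, Hoxd9 was at 0.801 and 1.04 in CTRL and at 1.16 and 1.95 in Znhit1_KO, again without overlap, and Hoxd13 was at 0.0487 and 0.0364 against 0.115 and 0.275.

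Of the genes between and beside them, Hoxd10 was at 1.92 and 1.58 CPM in CTRL and 1.80 and 2.64 CPM in Znhit1_KO, and Hoxd8 at 7.65 and 9.69 against 9.27 and 10.5 CPM, so for both the groups overlapped in CPM. In TPM the groups did not overlap for Hoxd8, at 8.97 and 9.93 in CTRL against 10.1 and 11.5 in Znhit1_KO. Hoxd8, next to Hoxd9, had a log2 change of 0.19 ± 0.24 SE. Hoxd11 was low, at 0.193 and 0.0156 CPM in CTRL and 0.291 and 0.346 CPM in Znhit1_KO. Hoxd12, between Hoxd11 and Hoxd13, had estimated counts of 6, 4, 4 and 6 and was not tested. The 4 tested posterior Hoxd genes had a median log2 change of 1.34.

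The promoters of Hoxd9 and Hoxd13 are shown because these were the Hox genes that DESeq2 called as higher; no binding or methylation was measured here. Each is 250 bases upstream of the start in RefSeq (GRCm38.p6), plus strand, with every CG in capitals.
Hoxd13, chr2:74667975-74668224: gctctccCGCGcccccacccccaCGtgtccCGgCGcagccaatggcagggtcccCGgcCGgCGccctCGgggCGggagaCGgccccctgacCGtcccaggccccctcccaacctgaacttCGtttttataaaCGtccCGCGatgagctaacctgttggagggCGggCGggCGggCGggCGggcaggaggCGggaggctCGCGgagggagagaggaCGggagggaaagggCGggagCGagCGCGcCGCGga
Hoxd9, chr2:74697513-74697762: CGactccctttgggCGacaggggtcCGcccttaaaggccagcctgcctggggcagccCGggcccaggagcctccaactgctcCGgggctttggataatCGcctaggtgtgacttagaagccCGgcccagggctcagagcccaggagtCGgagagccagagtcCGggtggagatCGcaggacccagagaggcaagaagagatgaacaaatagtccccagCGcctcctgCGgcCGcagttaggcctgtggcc
The Hoxd13 window holds 31 CG and the Hoxd9 window 13 CG, and 5.19% and 31.5% of the 32851 windows of that length hold at least as many. Entries were found for 22 of the 39 Hox genes; their 24 windows had a median of 12.5 CG, against 6 in all windows. CG was searched as these letters, which read the same on both strands.

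At the other end of the cluster, Hoxd1 was at 0.0888 and 0 CPM in CTRL and 0.354 and 0.166 CPM in Znhit1_KO, from at most 56 estimated counts, with a log2 change of 2.52 ± 1.46 SE. Hoxb1, its paralogue, had 0.0222 and 0.0389 CPM against 0.139 and 0.115 CPM (2.03 ± 0.92 SE). Hoxa5, which acts in lung and axial skeleton development, had 0.0444 and 0.0467 CPM against 0.127 and 0.259 CPM (2.06 ± 0.86 SE). All 3 were higher in both Znhit1_KO libraries, but at levels where few reads decide the change.

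Hoxd4 was at 0.644 and 0.724 CPM in CTRL and at 1.13 and 1.32 CPM in Znhit1_KO (log2 change 0.84 ± 0.38 SE), and Hoxd3 overlapped between the groups. The annotation gives Hoxd4 52.3% and Hoxd3 62.3% of their exonic bases in common with same-strand genes, among them Gm28230 and each other, so their reads cannot be fully told apart. Gm28230 had 1.46 and 1.01 CPM in CTRL and 2.48 and 1.62 CPM in Znhit1_KO.

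In the Hoxc cluster, Hoxc4 and Hoxc6, which pattern the neck and upper trunk, were the most abundant genes. Hoxc4 was at 1.34 and 1.46 CPM in CTRL and 3.25 and 2.23 CPM in Znhit1_KO, without overlap (log2 change 0.96 ± 0.35 SE, adjusted p = 0.434 in edgeR). Hoxc6 was at 1.76 and 0.973 against 2.37 and 2.56 CPM (0.85 ± 0.40 SE). Hoxc9 was also higher in both Znhit1_KO libraries, while Hoxc5, Hoxc8 and Hoxc10 overlapped in CPM. Hoxc13, a regulator of hair and nail keratins, was at 0.222 and 0.218 against 0.177 and 0.115 CPM (-0.58 ± 0.67 SE).

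In the Hoxb cluster, Hoxb9 was far above its neighbours, at 8.86 and 8.04 CPM in CTRL and 10.7 and 10.9 CPM in Znhit1_KO. These 4 values did not overlap between the groups and replicates were close, but the log2 change was small, 0.36 ± 0.21 SE. Hoxb5 (0.333 and 0.467 against 0.487 and 1.08 CPM) and Hoxb6 (0.163 and 0.202 against 0.241 and 0.367 CPM) were also higher in both Znhit1_KO libraries. Hoxb4 was next to level, at 0.622 and 0.755 against 0.759 and 0.756 CPM. Hoxb2, Hoxb3, Hoxb7, Hoxb8 and Hoxb13 overlapped. Of the exonic bases of Hoxb3, 52.9% lie opposite the antisense gene Hoxb3os, and the sources used here do not say whether the libraries keep strand.

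Hoxa4 went the other way. It lies on chr6:52189671-52191753, minus strand, and stood at 7.16 and 23.3 CPM in CTRL and at 2.21 and 6.30 CPM in Znhit1_KO. Both Znhit1_KO libraries were below both CTRL libraries, and in each group replicate 2 was about as far above replicate 1, by 3.25 times in CTRL and 2.85 times in Znhit1_KO. The log2 change was -1.84 ± 0.73 SE (adjusted p = 0.467 in edgeR). Leaving out CTRL replicate 2 gave -0.75, and leaving out Znhit1_KO replicate 2 gave -2.81. Hoxa4 shares 16% of its exonic bases with the antisense gene Gm29430.

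Markers of pachytene spermatocytes, the meiotic cells that are the most advanced germ cells at this age, followed the same order of libraries. The 8 markers summed to 1352 and 2810 CPM in CTRL and to 653 and 1009 CPM in Znhit1_KO. Lower in both Znhit1_KO libraries were 8 of 8, against 21.3% of all tested genes, with a median log2 change of -2.32. Hspa2, which fell least (-0.89), made up 700 and 1224 CPM of the sum in CTRL and 447 and 592 CPM in Znhit1_KO. Per 1000 CPM of these markers, Hoxa4 was at 5.29 and 8.29 in CTRL and at 3.38 and 6.24 in Znhit1_KO, so that the groups overlapped. The part of the pachytene cells in the Hoxa4 difference was not tested.

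Hoxa3, which patterns the pharyngeal arches and is the next gene of the cluster, shared the difference between replicates but not that between groups. It was at 3.02 and 9.46 CPM in CTRL and 3.96 and 8.89 CPM in Znhit1_KO, replicate 2 being 3.13 and 2.25 times replicate 1 (log2 change 0.04 ± 0.65 SE). The annotation puts 25.4% of its exonic bases opposite antisense genes, Hoxaas3 among them. All Hox genes together summed to 47.1 and 69.5 CPM in CTRL and to 57.4 and 72.2 CPM in Znhit1_KO, and the groups overlapped. With Hoxa3 and Hoxa4 left out, a choice made after their replicates were seen to differ, the other Hox genes summed to 36.9 and 36.7 CPM in CTRL and to 51.3 and 57.0 CPM in Znhit1_KO. The groups did not overlap in this sum. Per 1000 CPM of Sertoli markers this sum stood at 6.40 and 6.13 in CTRL and at 6.26 and 8.28 in Znhit1_KO, where the groups overlapped.

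**Figure D4:**
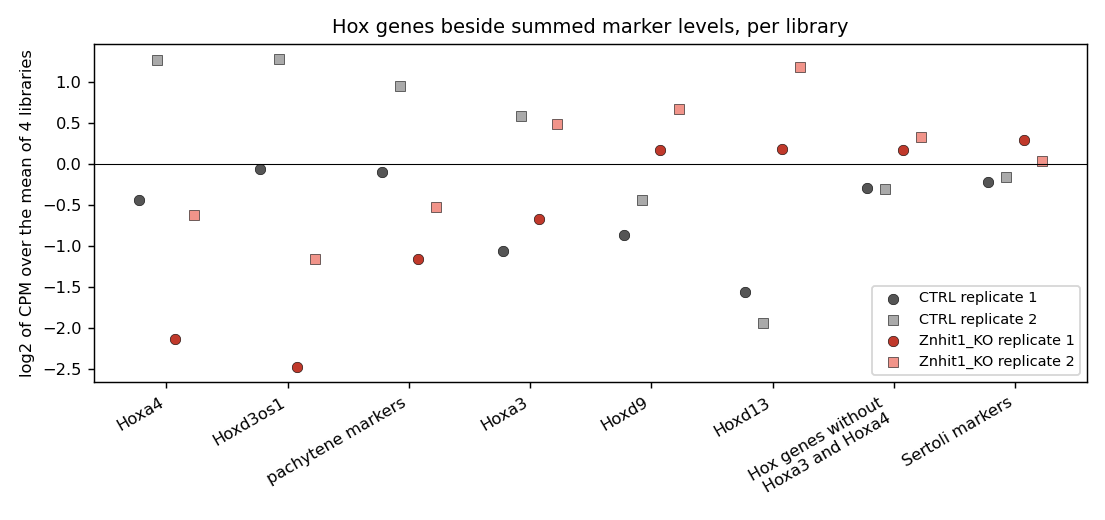
Log2 of each library's CPM over the mean of the 4 libraries, for single genes, the sum of the Hox genes without Hoxa3 and Hoxa4, and the sums of the pachytene and Sertoli markers; each point is 1 library. Hoxa4, Hoxd3os1 and the pachytene markers have CTRL replicate 2 highest and Znhit1_KO replicate 1 lowest. Hoxd9, Hoxd13, the Hox sum and the Sertoli sum have both Znhit1_KO points on top.

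The clusters hold 46 other annotated genes, of which 13 were tested and 13 had no count. Hoxd3os1, an antisense RNA of the Hoxd cluster (chr2:74703248-74716130, minus strand), was the only one of the 13 tested genes with both Znhit1_KO libraries below both CTRL libraries, at 3.27 and 8.25 CPM in CTRL and 0.614 and 1.53 CPM in Znhit1_KO. Its log2 change was -2.43 ± 0.66 SE (adjusted p = 0.325 in edgeR), and the authors' deposited table marks it down. Like Hoxa4, it was higher in replicate 2 of each group, by 2.52 and 2.5 times. Per 1000 CPM of pachytene markers it was at 2.42 and 2.94 in CTRL and 0.940 and 1.52 in Znhit1_KO, without overlap. Hspa2 weighs most in that sum, and the 8 markers had a median log2 change of -2.32, near that of Hoxd3os1. Its exons lie opposite 11.8% of the exonic bases of Hoxd4, which was on the higher side.

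Gm53, a noncoding RNA upstream of Hoxb9, was at 8.54 and 5.26 CPM in CTRL and 11.6 and 11.3 CPM in Znhit1_KO (log2 change 0.73 ± 0.30 SE). Mir196a-1 and Gm28230 were also higher in both Znhit1_KO libraries, and the other 9 tested genes overlapped. Over all tested genes 21.8% were higher and 21.3% lower in both. The higher share inside the clusters was near that of all genes, and the lower share was under it. Beyond the paralogue 13 end of the Hoxa cluster lies Evx1, a homeobox gene of the even-skipped family, at 0.415 and 0.132 CPM in CTRL and 1.10 and 1.33 CPM in Znhit1_KO (2.14 ± 0.65 SE). Evx1os, its antisense partner, chosen after its values were seen, was at 0.659 and 0.491 against 1.89 and 2.19 CPM (1.82 ± 0.38 SE), and the authors' deposited table marks it up. Reads of this pair cannot be told apart without strand. The other genes flanking the clusters were mixed: Skap2 near Hoxa had a log2 change of -0.76 and Ttll6 near Hoxb one of -1.33, with both Znhit1_KO libraries below both CTRL libraries. The medians of the 4 flanking lists lay between -0.04 and 0.08.

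For the genes of proteins that act with or on Hox genes, the medians lay near that of all genes. Of 9 TALE homeodomain partners, the Pbx, Meis and Pknox proteins that bind DNA together with Hox proteins, 3 were higher in both Znhit1_KO libraries and none was lower, with a median log2 change of 0.04. Over all tested genes 21.8% were higher and 21.3% lower in both. Meis2, of this list, was at 0.607 and 0.483 CPM in CTRL and 1.33 and 0.900 CPM in Znhit1_KO (1.04 ± 0.43 SE). Of 32 Polycomb genes, 6 were higher and 8 lower in both Znhit1_KO libraries, with a median of -0.04, shares near those of all genes. Of these, Phc1, a subunit of Polycomb repressive complex 1, was at 161 and 221 CPM in CTRL and 115 and 123 CPM in Znhit1_KO (-0.69 ± 0.20 SE). Of 13 Trithorax genes, 1 was higher and 2 were lower, with a median of 0.10. No gene of these lists passed edgeR's adjusted threshold, and DESeq2 called none of them.

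Caudal factors and retinoic acid signalling activate Hox genes in the embryo. Of 12 tested genes of this list, 7 were higher in both Znhit1_KO libraries and none was lower, with a median log2 change of 0.30, where 21.8% of all tested genes were higher in both. With scaling on Sertoli markers, 4 of the 12 had a positive change and the median was -0.04. Cdx1, a caudal homeobox gene, was at 0.296 and 0.187 CPM in CTRL and at 0.835 and 1.21 CPM in Znhit1_KO (2.08 ± 0.51 SE, adjusted p = 0.312 in edgeR), and the authors' deposited table marks it up. Rarb, a retinoic acid receptor, was at 0.222 and 0.109 against 0.494 and 0.533 CPM (1.63 ± 0.61 SE). Aldh1a3, which makes retinoic acid, was at 3.90 and 3.29 against 6.67 and 5.71 CPM (0.78 ± 0.26 SE). Cdx4 was at 0 in all 4 libraries.

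Markers of tissues next to the testis were read beside the Hox genes, since posterior Hox genes are also expressed in the urogenital tract. Of 10 epididymis and Wolffian duct markers, 4 were at 0 in all 4 libraries (Lcn8, Lcn9, Crisp1 and Adam28). The list summed to 5.65 and 1.49 CPM in CTRL and 12.1 and 3.31 CPM in Znhit1_KO, so the groups overlapped as a sum, and in each group replicate 1 was the higher library. All 6 tested markers had a positive log2 change, against 53.1% of all tested genes, with a median of 1.23. Cdh16 (0.200 and 0.070 against 0.930 and 0.295 CPM) and Emx2 (0.244 and 0.039 against 0.930 and 0.374 CPM) were higher in both Znhit1_KO libraries. Hoxd13 was higher in replicate 1 in CTRL and in replicate 2 in Znhit1_KO. The 4 mesothelium markers summed to 5.96 and 5.88 CPM in CTRL and 5.99 and 8.51 CPM in Znhit1_KO. The part of such tissue in the Hox levels was not tested.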

How the data were processed

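RNA was measured in 4 testis libraries, 2 per group. The submitters' processing notes name mm10, HISAT2 2.2.1 and StringTie 2.2.1, besides cutadapt 2.5 and DESeq2 1.38.3, without saying in which role. Not given in the sources used here are order, settings, annotation and strandedness. Whole numbers in the deposited gene table were treated as estimated counts of the authors, not as numbers of reads. The authors' deposited comparison table gives TPM, a mean normalised signal, log2 fold changes with their standard errors, a Wald score and p-values; its TPM were used only as described values.

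Estimated counts, 129531714 to 157790457 per library, were tested with edgeR 4.0.16 in R 4.3.3 (TMM factors, filterByExpr, quasi-likelihood F-test, Benjamini-Hochberg adjusted p threshold 0.05) on all 24116 genes that passed; each SE is the log2 change over the root of its F. The test was tried on simulated data. Alternatives were DESeq2 1.42.0, limma 3.58.1, RLE factors, total count scaling, scaling on Sertoli markers, other filters, a replicate block and leaving out each library. The text names Znhit1, the Hox genes, genes inside the clusters and up to 4 genes of each other list with the lowest p. Mrc1, Hspa2, Clu and Nr5a1 are named as the largest parts of their marker sums. Values of some single items, 1 tested Hox gene among them, are not reported here, though counts and medians include them. Members and lists were chosen with earlier results of these data known. Symbols were those of the deposited table, positions those of GENCODE M21.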

Additional observations from a re-analysis of the deposited data

How the results depend on the processing

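Under limma, RLE factors and total count scaling no Hox median moved by more than its spread between replicates and no Hox gene was called. Genes called at an adjusted p of 0.05 numbered 0 in edgeR, 1027 in DESeq2, 94 with scaling on Sertoli markers, 2737 with a replicate block and 0 to 754 when 1 library was left out (754 without CTRL replicate 1). Hox genes called numbered 3 in DESeq2 and 3 with the replicate block (Hoxa4, Hoxd9 and Hoxd13 in both), and 0 when any 1 library was left out. Replicate 1 minus replicate 2 had a correlation of 0.42 between the groups across 24116 genes, but with 2 pairs the numbers cannot be taken to pair the libraries. Znhit1 had a log2 change of -3.23 in DESeq2, -3.58 with Sertoli scaling and -3.17 with the replicate block, each past the adjusted threshold, and -3.60 to -2.71 when 1 library was left out, past it only without CTRL replicate 1.

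Scaling on Sertoli markers moved the median of all genes to -0.32 and the Hox medians to 0.018 (all), -0.028 (Hoxa), -0.092 (Hoxb), 0.50 (Hoxc), 0.63 (Hoxd), -0.12 (anterior), 0.29 (central) and 0.018 (posterior). This scaling used the sum of the markers, which is mostly Clu. It left 8 Hox genes higher in both Znhit1_KO libraries, and this count was added after seeing the data. Genes that turned to the lower side under it were at -0.25 for Hoxa3, -0.27 for Hoxa10, -0.28 for Hoxb3, -0.21 for Hoxb4, -0.00085 for Hoxb7, -0.20 for Hoxb8, -0.18 for Hoxb13, -0.059 for Hoxc8, -0.16 for Hoxc10, -0.010 for Hoxd3 and -0.15 for Hoxd8. The medians of the central and posterior genes were 0.73 and 0.78 in DESeq2 and 0.73 and 0.79 without a filter, where more low genes enter. With genes of a mean of at least 1 CPM, the medians were -0.86 for 2 Hoxa genes, 0.35 for 3 Hoxd genes and 0.53 for 4 central genes.

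With 1 library left out the lone library is assumed to vary like the other group. The medians then ran from 0.39 to 0.74 (all Hox), 0.34 to 0.74 (Hoxa), 0.20 to 0.50 (Hoxb), 0.39 to 0.90 (Hoxc), 0.73 to 1.10 (Hoxd), 0.28 to 0.56 (anterior), 0.39 to 0.74 (central) and 0.34 to 1.11 (posterior). Genes that changed direction ran from -0.91 to 1.5 (Hoxa2), -0.68 to 1.09 (Hoxa3), -0.37 to 0.40 (Hoxa10), -1.10 to 0.39 (Hoxb2), -0.13 to 0.25 (Hoxb3), -0.030 to 0.63 (Hoxb7), -0.47 to 0.59 (Hoxb8), -0.57 to 1.75 (Hoxb13), -0.040 to 0.47 (Hoxc8) and -0.054 to 0.30 (Hoxc10). Of the 39 Hox genes, 19 had a mean under 0.5 CPM, and 2 libraries per group limit every test.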
